A study of Homo sapiens with 18 samples.

Results

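The genes described here make, sense and move cholesterol. They are 28 named genes, a set of 19 enzymes of the mevalonate and sterol pathways, 4 genes of SREBP2 and its control, 2 sterol transfer genes, and 3 genes of lipoprotein receptor decay and sterol export. All 28 were found by symbol among the 61806 Ensembl gene identifiers of the deposited table. Levels are TPM, a measure of relative transcript abundance scaled for gene length and for the total of each library, so genes can be set side by side within a library. A TPM is a share of its library, and a shift in a few abundant transcripts moves all others. Most counts of members called are therefore also given under another scaling where that alters them. Enzyme sums and the lists of neighbouring genes are given on the TPM scale only. RNA came from LoVo and DLD-1, 2 established human lines of colorectal cancer, cultured in DMEM with fetal bovine serum. Under each label there were cells with an empty vector (EV), cells overexpressing LIN28B, an RNA-binding protein known for blocking let-7 microRNA maturation, and LIN28B cells given alpelisib at 5 µM. Alpelisib inhibits the alpha isoform of phosphatidylinositol 3-kinase (PI3K). Each of the 6 groups had 3 libraries, 18 in all, none of EV cells with alpelisib. How the vector was delivered, whether a line was 1 clone, the vehicle of untreated cells and the length of treatment are not given in the sources used here. The labels do not say whether the 3 replicates of a group were grown apart. The p-values therefore reflect how far these libraries scatter, and that scatter may be technical.

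Cholesterol is built from acetyl-CoA through mevalonate, isoprenoid diphosphates, squalene and lanosterol. The transcription factor SREBP2, the product of SREBF2, waits in the endoplasmic reticulum bound to its escort SCAP, and the INSIG proteins hold the pair there when sterol is plentiful. When sterol is scarce, SCAP carries SREBP2 to the Golgi for cleavage, and the released factor switches on the enzymes of synthesis, INSIG1 and SREBF2 itself. Excess sterol acts the other way through the LXR receptors, which induce the export pumps ABCA1 and ABCG1 and the ubiquitin ligase MYLIP, which marks lipoprotein receptors for destruction. PI3K signalling is known from other systems to promote SREBP activity through AKT and mTORC1.

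The control of the pathway is partly written in its promoters. SREBP2 binds sterol regulatory elements (SRE) and acts with NF-Y, a factor that binds the CCAAT box. RefSeq promoter windows of GRCh38.p14, each 300 bases from 250 before to 50 after a start site, were present for 24 of the 28 members (32 windows). The search covered both strands. The stretches below lie upstream of the RefSeq start and outside annotated protein-coding exons of GENCODE v29. They show the gene of the factor itself, 5 members that alpelisib lowered, and MYLIP from the decay side, and were picked among members with 1 window. All of them hold a CCAAT box, and lowered members without one, such as CYP51A1 and SCAP, are not shown. Each is written 5′ to 3′ on the strand of its gene. Capitals mark the SRE, searched as TCACNCCAC, and the CCAAT box, which reads ATTGG where it lies on the other strand.
SREBF2 (SREBP2 gene, chr22:41832955-41833078, plus strand): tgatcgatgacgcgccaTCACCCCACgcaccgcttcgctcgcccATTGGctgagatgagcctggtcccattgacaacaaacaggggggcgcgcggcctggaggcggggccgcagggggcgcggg
INSIG1 (sterol anchor, chr7:155297658-155297775, plus strand): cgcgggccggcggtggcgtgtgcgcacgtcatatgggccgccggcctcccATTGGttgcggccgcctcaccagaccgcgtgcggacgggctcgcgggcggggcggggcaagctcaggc
STARD4 (sterol carrier, chr5:111512591-111512755, minus strand): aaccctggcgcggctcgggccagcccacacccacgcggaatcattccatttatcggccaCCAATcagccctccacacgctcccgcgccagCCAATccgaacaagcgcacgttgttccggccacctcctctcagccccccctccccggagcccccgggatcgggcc
MSMO1 (C4-methyl oxidase, chr4:165327469-165327622, plus strand): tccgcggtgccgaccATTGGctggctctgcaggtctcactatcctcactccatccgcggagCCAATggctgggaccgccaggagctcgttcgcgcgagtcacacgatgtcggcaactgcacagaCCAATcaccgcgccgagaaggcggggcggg
MVD (mevalonate decarboxylase, chr16:88663162-88663291, minus strand): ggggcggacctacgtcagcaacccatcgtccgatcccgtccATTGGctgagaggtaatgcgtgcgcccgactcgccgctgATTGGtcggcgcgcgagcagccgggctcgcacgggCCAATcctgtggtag
HSD17B7 (ketosterol reductase, chr1:162790552-162790701, plus strand): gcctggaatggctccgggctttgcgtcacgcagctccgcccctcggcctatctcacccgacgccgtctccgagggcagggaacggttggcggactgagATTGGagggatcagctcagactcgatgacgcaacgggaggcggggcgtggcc
MYLIP (receptor decay ligase, chr6:16128886-16129085, plus strand): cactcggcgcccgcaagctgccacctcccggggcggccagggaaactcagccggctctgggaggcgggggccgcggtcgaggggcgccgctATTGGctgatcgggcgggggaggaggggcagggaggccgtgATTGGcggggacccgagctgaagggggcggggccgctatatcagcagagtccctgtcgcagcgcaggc

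The SRE stood in the SREBF2 window alone, starting at position -133 where -1 is the base before the RefSeq start, against 1.13% of all 35116 windows. The CCAAT box was found in at least 1 window of 19 of the 24 members (79.2%), against 39.7% of all 27305 genes with windows. The printed stretches of MSMO1 and MVD hold 3 each, and those of STARD4 and MYLIP hold 2 each. A GC box, searched as GGGCGG, was in 23 of 24 members and in 48.3% of all genes, and an E-box, searched as CACGTG, in 5 of 24 and in 8.77%. A match describes letters in a window and is no evidence of binding. The SRE was searched as a fixed pattern, so a window without a match may hold an element with other letters. Members without a window were not searched. MYLIP, TM7SF2 and GGPS1, which alpelisib did not lower in these tests, held the CCAAT letters too. Members with a window but without the box were PMVK, CYP51A1, SCAP, INSIG2 and ABCA1. Of these, CYP51A1, SCAP and INSIG2 were called lower with alpelisib.

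LIN28B itself checked the labels. Its level was 1.17 to 4.91 TPM in the 6 EV libraries, 408 to 706 TPM in the 6 untreated LIN28B libraries, and 139 to 160 TPM with alpelisib, with no overlap between these ranges. The drug-treated cells thus also held less LIN28B transcript (log2 change -1.68 in DLD-1 and -2.15 in the LoVo-labelled cells, limma, adjusted p = 1.9e-06 and 6.6e-08), and the drug and the lower LIN28B transcript cannot be told apart in these groups. A second point concerns the LoVo label. LoVo EV differed from DLD-1 EV at 55.5% of the 18537 genes tested. The LIN28B libraries labelled LoVo differed from DLD-1 LIN28B at 14.0% and from LoVo EV at 56.8%. They are called LoVo-labelled here, and every contrast of them with LoVo EV rests on a label whose line was not tested. Transcripts of the mitochondrial genome took 14.5 to 24.0% of TPM in LoVo EV and 7.24 to 15.8% elsewhere. Of the markers of other cell types, fibroblast, leukocyte and endothelial sums reached at most 15.0, 17.1 and 1.53 TPM, with COL1A2 listed at 0 throughout, against 6969 to 14916 TPM for 6 colorectal epithelium markers. The epithelium sum was 8730 to 9483 TPM in untreated and 9783 to 10350 TPM in treated DLD-1 LIN28B cells, and 10139 to 10684 and 12946 to 14916 TPM in the LoVo-labelled ones, and its part in the results was not tested. Genome positions of key genes, from GENCODE v29 on GRCh38, are chr5:43289395-43313512 (minus strand) for HMGCS1, chr7:155297776-155310235 (plus) for INSIG1, chr4:165327623-165343160 (plus) for MSMO1, chr6:16129125-16148248 (plus) for MYLIP and chr21:42199689-42297244 (plus) for ABCG1, all protein-coding. TPM keep no record of read depth, so no counting interval is given.

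Alpelisib was accompanied by lower levels along nearly the whole synthesis route in both sets of LIN28B cells. The 19 enzymes summed to 3444, 3450 and 3084 TPM in DLD-1 LIN28B cells and to 1494, 1544 and 1682 TPM with alpelisib. In LoVo-labelled LIN28B cells the sums were 4090, 3812 and 4195 TPM untreated and 1650, 1880 and 1387 TPM treated. Neither pair of ranges overlapped. The mitochondrial share was 10.3 to 11.1% untreated and 10.6 to 15.8% treated in DLD-1, and 7.24 to 10.3% and 8.22 to 12.2% in LoVo-labelled cells. With TPM rescaled without those transcripts, the same numbers of members, given below, were called lower. MYLIP did not share this split, at 18.9 ± 1.66 and 18.5 ± 1.44 TPM in DLD-1 and 21.0 ± 0.512 and 22.9 ± 1.79 TPM in the LoVo-labelled cells (SD, n = 3). In bulk RNA, fewer cells of a kind and less RNA per cell cannot be told apart.

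**Figure D1:**
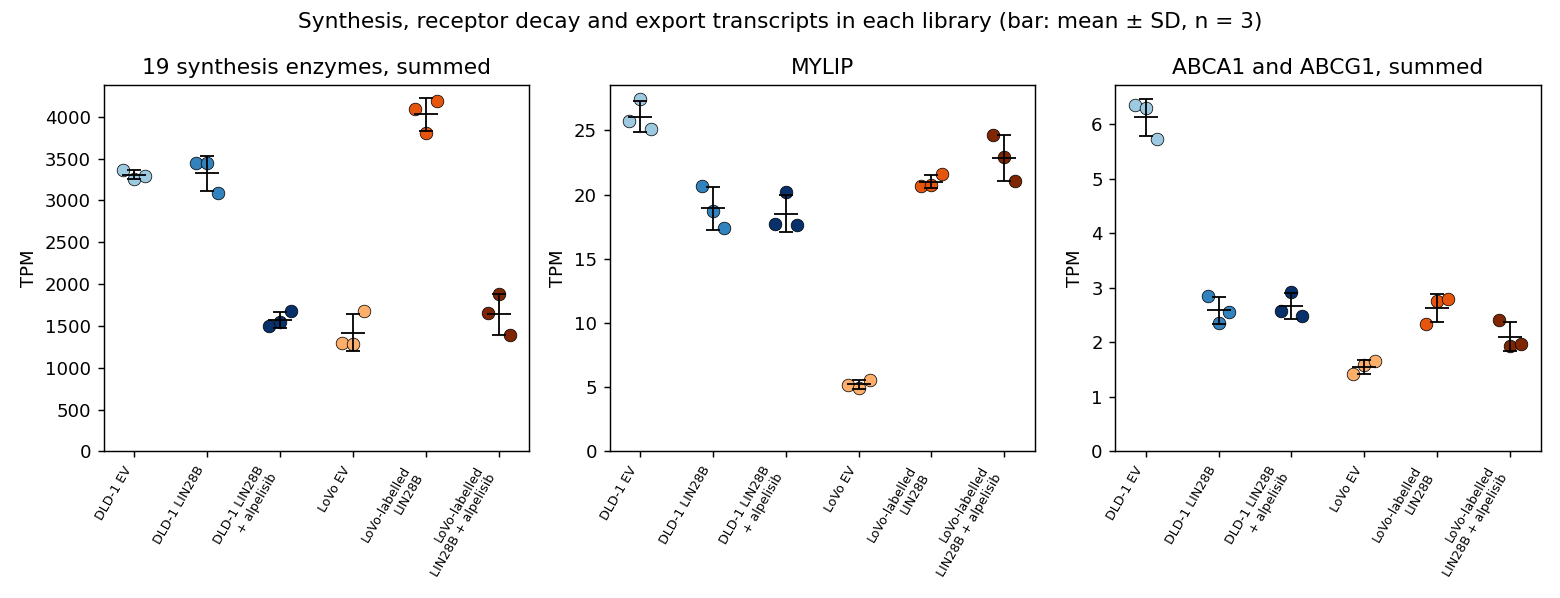
Summed TPM of the 19 synthesis enzymes, TPM of MYLIP, and summed TPM of ABCA1 and ABCG1 in each of 18 libraries (points), with the mean and SD of 3 libraries per group (bars). The enzyme sum lay between 1387 and 1880 TPM in the 6 alpelisib libraries and between 3084 and 4195 TPM in the 6 untreated LIN28B libraries, while MYLIP ranged over 17.4 to 24.7 TPM across those 12.

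Of the 28 members, 27 reached 1 TPM in at least 3 libraries and were tested with limma on log2(TPM + 1). ABCA1, at 0.025 to 0.241 TPM in all 18 libraries, did not. In DLD-1, 21 of 27 were called lower and 0 higher at an adjusted p under 0.05, where 21.9% of all genes tested were called lower, 9.05% higher and 31.0% in either direction. The median log2 change was -0.70 for the members and -0.09 for all genes. In the LoVo-labelled cells, 22 of 27 were called lower and 0 higher, where 24.6% of all genes were called lower, 15.1% higher and 39.7% in either direction, and the medians were -0.98 and -0.06. No member was higher at an unadjusted p under 0.05 in either comparison. The 21 genes called lower in DLD-1 were all called lower in the LoVo-labelled cells, and TMEM97 was the addition.

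Each library was also rescaled by median-of-ratios factors, which put the median log2 change of all genes at 0.01 in DLD-1 and 0.03 in the LoVo-labelled cells. The all-gene calls then split into 2620 higher and 2886 lower in DLD-1, against 1677 and 4067 on the TPM scale, and into 3588 and 3746 in the LoVo-labelled cells, against 2807 and 4557. Of the members, 20 were called lower and 0 higher in DLD-1, and 22 lower and 2 higher, TM7SF2 and MYLIP, in the LoVo-labelled cells.

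**Figure D2:**
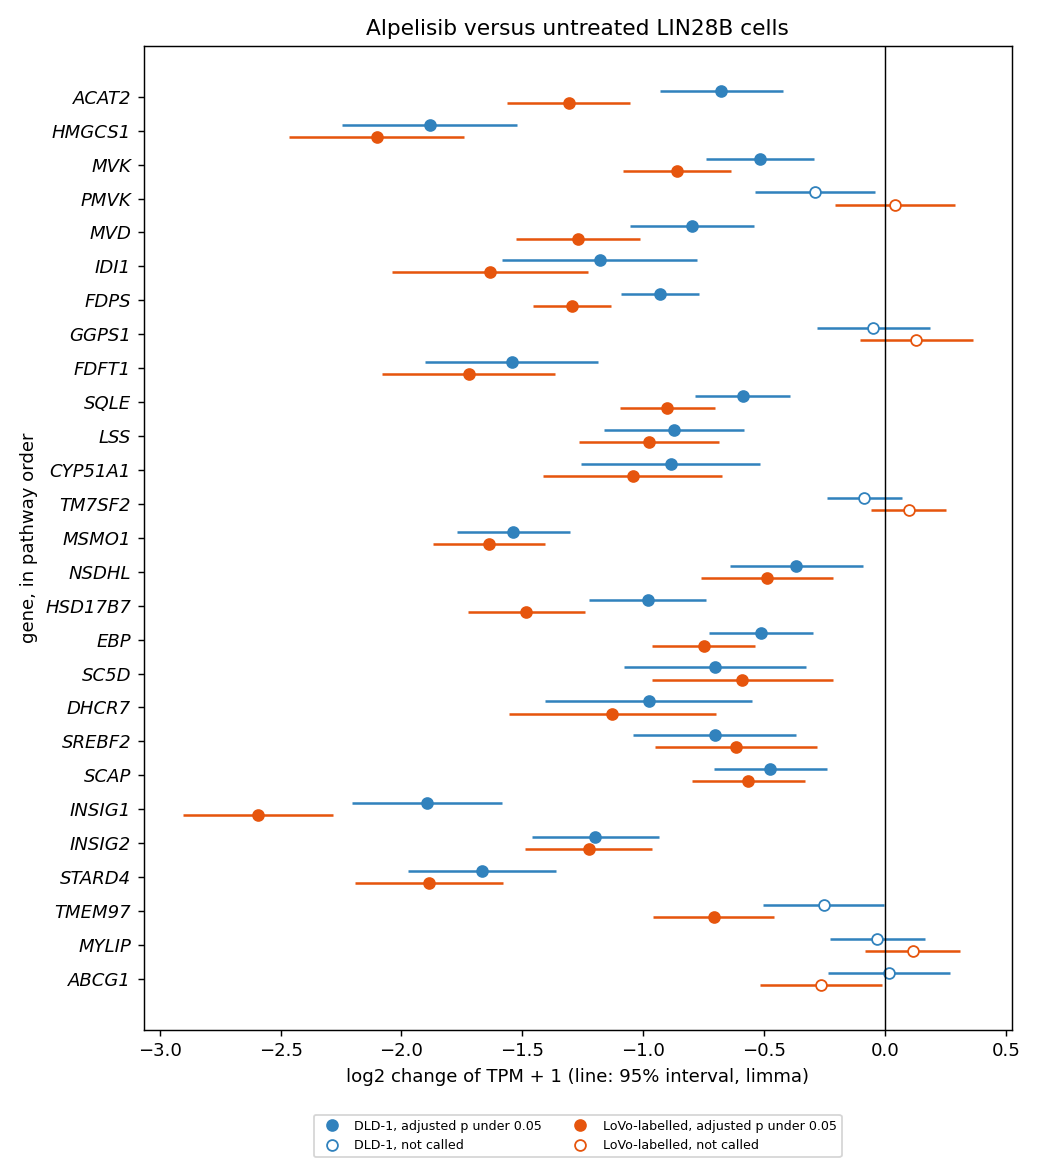
log2 change of TPM + 1 (x axis) for the 27 tested members in pathway order (y axis), alpelisib versus untreated LIN28B cells, in DLD-1 (blue) and LoVo-labelled cells (orange), with limma 95% intervals as lines. Filled points passed an adjusted p of 0.05. PMVK, GGPS1, TM7SF2, MYLIP and ABCG1 are open in both, and INSIG1 lies farthest left at -1.89 and -2.59.

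The mevalonate segment opens with ACAT2, a cytosolic thiolase, and HMGCS1, the HMG-CoA synthase, and 5 of its 6 enzymes fell in each set of cells. HMGCS1 stood at 579, 578 and 515 TPM in DLD-1 LIN28B cells and at 128, 156 and 169 TPM with alpelisib. It fell 3.69-fold on mean TPM (log2 change -1.88 ± 0.17 SE, limma, adjusted p = 1.99e-06). In LoVo-labelled cells it stood at 746, 723 and 813 TPM untreated and 194, 212 and 134 TPM treated, a 4.24-fold fall (log2 change -2.10 ± 0.17 SE, limma, adjusted p = 2.65e-07). The treated libraries were below every untreated one in both sets of cells.

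IDI1, the isomerase that makes dimethylallyl diphosphate, averaged 133 ± 14 TPM in untreated and 58.0 ± 2.14 TPM in treated DLD-1 cells, and fell in the LoVo-labelled cells from 180 ± 17.5 to 58.0 ± 12 TPM. ACAT2 was at 163, 167 and 151 TPM without and 95.1, 96.8 and 108 TPM with the drug in DLD-1, and fell in the LoVo-labelled cells from 203 ± 12.5 to 82.1 ± 12.7 TPM. Its locus overlaps TCP1 on the opposite strand, a chaperonin gene at a mean of 219 TPM, and the use of strand in counting was not given in the sources used here. The mevalonate kinase MVK had log2 changes of -0.52 and -0.86, and the decarboxylase MVD -0.80 and -1.27, all called. PMVK, the phosphomevalonate kinase between them, was the exception, at 16.0, 18.1 and 14.1 TPM untreated and 14.3, 11.4 and 13.1 TPM treated in DLD-1, groups that overlapped. Its log2 changes were -0.29 (limma, adjusted p = 0.0734) and 0.04 in the LoVo-labelled cells (adjusted p = 0.807).

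FDPS and GGPS1 stand at the isoprenoid fork, where farnesyl diphosphate goes either towards sterol or on to the geranylgeranyl lipid used for protein prenylation. FDPS, the farnesyl diphosphate synthase and the most abundant member in 5 of the 6 groups, was at 649, 637 and 577 TPM in DLD-1 LIN28B cells and 308, 318 and 351 TPM with alpelisib. The log2 change was -0.93 ± 0.08 SE (limma, adjusted p = 6.82e-07), and it was -1.29 ± 0.08 SE in LoVo-labelled cells (limma, adjusted p = 1.01e-08). GGPS1, the geranylgeranyl diphosphate synthase, was at 51.6, 42.3 and 45.6 TPM without and 42.2, 49.2 and 43.4 TPM with the drug in DLD-1, and the groups overlapped in both sets of cells. Its log2 changes were -0.05 (95% interval -0.28 to 0.19) and 0.13 (-0.10 to 0.36). GGPS1 overlaps TBCE on the same strand and ARID4B on the other.

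All 3 enzymes between farnesyl diphosphate and lanosterol fell in each set of cells. FDFT1, the squalene synthase and the first committed sterol step, was at 569, 560 and 497 TPM in DLD-1 LIN28B cells and 179, 173 and 205 TPM with alpelisib. It fell 2.92-fold there (log2 change -1.54 ± 0.17 SE, limma, adjusted p = 1.34e-05) and 3.25-fold in LoVo-labelled cells (log2 change -1.72 ± 0.17 SE, limma, adjusted p = 1.62e-06). SQLE, the squalene epoxidase, went in DLD-1 from 89.2 ± 3.48 to 59.1 ± 3.0 TPM, and in LoVo-labelled cells from 99.5 ± 1.81 to 53.1 ± 5.40 TPM. LSS, which closes the ring to lanosterol, had log2 changes of -0.87 and -0.98.

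From lanosterol to cholesterol, 7 of 8 enzymes fell in each set of cells. MSMO1, the C4-methyl sterol oxidase whose promoter stretch above carries 3 CCAAT boxes, was at 309, 307 and 282 TPM in DLD-1 LIN28B cells and 95.8, 104 and 108 TPM with alpelisib. Its log2 change was -1.54 ± 0.11 SE (limma, adjusted p = 1.72e-07), and -1.64 ± 0.11 SE in LoVo-labelled cells (limma, adjusted p = 4.17e-08). HSD17B7, the 3-ketosterol reductase, stood in DLD-1 at 57.1 ± 1.98 TPM untreated and 28.5 ± 1.08 TPM treated, and in LoVo-labelled cells at 79.1 ± 5.18 and 28.0 ± 5.54 TPM. Its pseudogene HSD17B7P2 was listed at a mean of 9.26 TPM, and how reads common to both were assigned was not given in the sources used here.

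CYP51A1, the lanosterol demethylase, had log2 changes of -0.89 and -1.04 in DLD-1 and LoVo-labelled cells, and DHCR7, the last reductase, -0.98 and -1.13. EBP, the sterol isomerase, had -0.51 and -0.75. These 3 passed the test in both sets of cells. NSDHL, the C4 decarboxylase, had -0.37 in DLD-1 (limma, adjusted p = 0.0413), a call lost in 9 alternatives including leaving out DLD-1 LIN28B replicate 1 (-0.29, adjusted p = 0.161) or 2 (-0.38, 0.0751), or alpelisib replicate 1 (-0.28, 0.175) or 2 (-0.38, 0.0745). SC5D, the lathosterol desaturase, had -0.70 and -0.59, and the second was lost with only the compared groups fitted (limma, adjusted p = 0.067) and without LoVo-labelled LIN28B replicate 3 (-0.54, adjusted p = 0.0524) or alpelisib replicate 3 (-0.35, 0.0888).

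TM7SF2, one of the 2 known sterol C14 reductases, was the enzyme of this segment without a call. It was at 89.6, 91.0 and 84.1 TPM untreated and 88.0, 77.5 and 84.2 TPM treated in DLD-1, and at 133, 123 and 134 TPM and 133, 150 and 136 TPM in LoVo-labelled cells. The groups overlapped in both sets of cells, with log2 changes of -0.08 (95% interval -0.24 to 0.07) and 0.10 (-0.06 to 0.25). Under median-of-ratios scaling the second became a called rise of 0.22 (limma, adjusted p = 0.0226). TM7SF2 overlaps VPS51 on the same strand, at a mean of 104 TPM, so its values are uncertain.

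The 4 genes of SREBP2 and its control fell in both sets of cells. INSIG1, the sterol-sensing anchor and itself an SREBP2 target, was at 231, 250 and 207 TPM in DLD-1 LIN28B cells and 59.9, 59.5 and 63.2 TPM with alpelisib, a 3.77-fold fall (log2 change -1.89 ± 0.15 SE, limma, adjusted p = 4.03e-07). In LoVo-labelled cells it went from 314, 328 and 342 TPM to 51.4, 69.4 and 43.0 TPM, which is 6.01-fold lower (log2 change -2.59 ± 0.15 SE, limma, adjusted p = 7.91e-09). The change in LoVo-labelled cells was the most negative of any member. In DLD-1 that of INSIG1 did not differ from that of HMGCS1 (-1.88) beyond their standard errors. INSIG2, the second anchor, averaged 61.6 ± 1.10 TPM untreated and 26.4 ± 3.54 TPM treated in DLD-1 cells, against 99.3 ± 11.3 and 41.8 ± 3.26 TPM in LoVo-labelled cells.

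SREBF2 was at 128, 120 and 117 TPM in DLD-1 LIN28B cells and 76.1, 66.4 and 81.5 TPM with alpelisib (log2 change -0.70 ± 0.16 SE, limma, adjusted p = 0.00361). In LoVo-labelled cells its values were 131, 128 and 142 TPM untreated and 97.3, 105 and 63.8 TPM treated (log2 change -0.62 ± 0.16 SE, limma, adjusted p = 0.00579). The groups did not overlap, and the third treated LoVo-labelled library was the lowest, as it was for FDFT1, DHCR7 and SC5D. The escort SCAP had log2 changes of -0.47 and -0.57, both called.

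STARD4, which carries cholesterol between membranes, was at 113, 98.0 and 103 TPM in DLD-1 LIN28B cells and 30.7, 31.9 and 34.1 TPM with alpelisib. It fell 3.24-fold there and 3.74-fold in LoVo-labelled cells (log2 changes -1.67 and -1.88, both ± 0.14 SE, limma, adjusted p = 1.31e-06 and 1.69e-07). TMEM97, the sigma-2 receptor that binds the lysosomal transporter NPC1, had a log2 change of -0.25 in DLD-1 (limma, adjusted p = 0.117) and fell by 0.71 on the log2 scale in LoVo-labelled cells (limma, adjusted p = 0.000218). The test of the difference between the sets gave -0.46 for TMEM97 (limma, adjusted p = 0.245). TMEM97 overlaps IFT20 on the opposite strand.

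On the side of receptor decay and export, 0 of 2 tested genes were called in either comparison, with 0 at an unadjusted p under 0.05 in DLD-1 and 1, ABCG1, in the LoVo-labelled cells. As 31.0% and 39.7% of all genes were called, 0 of 2 does not by itself set these genes apart. MYLIP was at 20.7, 18.7 and 17.4 TPM in DLD-1 LIN28B cells and 17.7, 20.2 and 17.7 TPM with alpelisib, with a log2 change of -0.03 (95% interval -0.23 to 0.16, limma, adjusted p = 0.843). In LoVo-labelled cells it was 0.12 (-0.08 to 0.31, adjusted p = 0.351), which became a called 0.23 under median-of-ratios scaling (limma, adjusted p = 0.0336). The sterol pump ABCG1 was at 2.67, 2.30 and 2.41 TPM without and 2.46, 2.77 and 2.29 TPM with the drug in DLD-1. In LoVo-labelled cells ABCG1 was at 2.27, 2.73 and 2.72 TPM without and 2.18, 1.85 and 1.90 TPM with the drug, without overlap. Its log2 change was 0.02 in DLD-1 and -0.26 in LoVo-labelled cells (95% interval -0.52 to -0.01, limma, adjusted p = 0.0918), and the latter was called lower when the variance trend was left out (adjusted p = 0.029). At such low TPM, folds on the log2(TPM + 1) scale are understated. ABCA1, the pump for lipid-poor apolipoproteins, stayed at or below 0.241 TPM in every library, and was not tested.

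**Figure D3:**
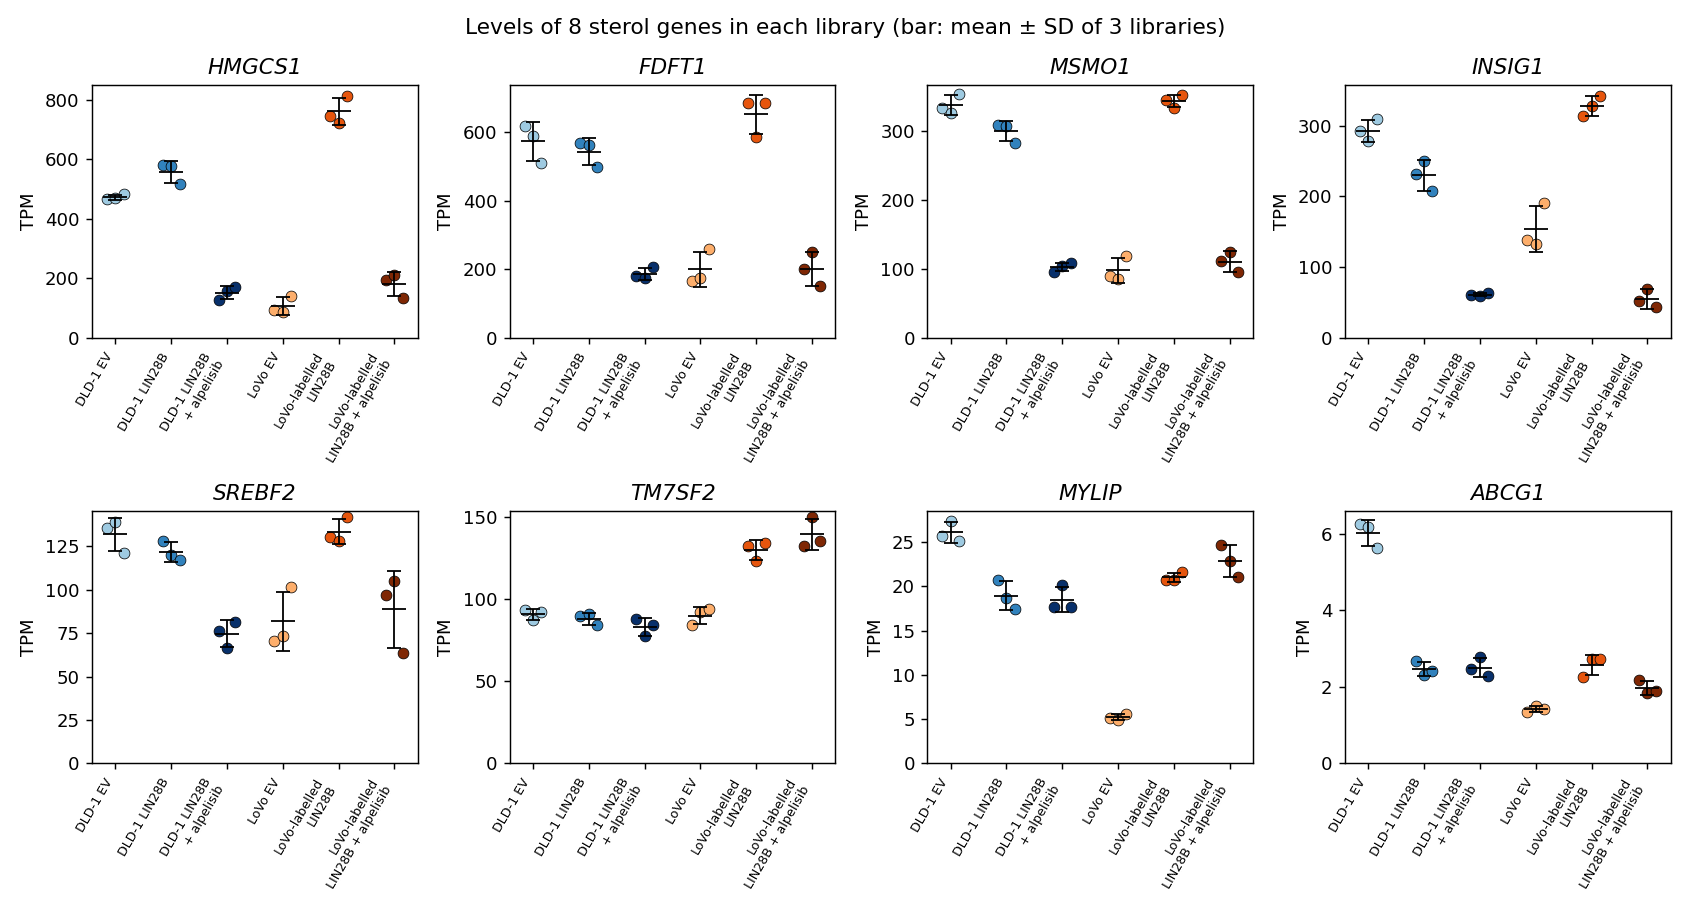
TPM (y axis) of 8 members in each of 18 libraries (points), with the mean and SD of 3 libraries per group (bars). HMGCS1, FDFT1, MSMO1 and INSIG1 drop in both alpelisib groups, with INSIG1 at 43.0 to 69.4 TPM, while TM7SF2 and MYLIP do not separate treated from untreated LIN28B cells.

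The alpelisib effect was then compared between the LoVo-labelled and DLD-1 cells. Of 27 members, 0 were called in the limma test of the difference, where 0.847% of all genes were called, and 8 had a lower difference at an unadjusted p under 0.05, namely ACAT2, MVK, MVD, FDPS, SQLE, HSD17B7, INSIG1 and TMEM97. INSIG1 had the largest difference, -0.70 (95% interval -1.14 to -0.26, adjusted p = 0.138). ACAT2 had -0.63 (-0.99 to -0.27, adjusted p = 0.102) and FDPS -0.36 (-0.59 to -0.14, adjusted p = 0.134). Both were called under median-of-ratios scaling (limma, adjusted p = 0.0359 and 0.0462), as were INSIG1 and HSD17B7 without the second treated LoVo-labelled library (adjusted p = 0.0423 and 0.0496). All-gene calls of this difference were 118 higher and 39 lower on the TPM scale and 159 and 105 under median-of-ratios scaling.

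In DLD-1, ABCG1 and MYLIP were the members called between LIN28B and EV cells. The enzyme sum was 3306 ± 53.1 TPM in EV and 3326 ± 210 TPM in LIN28B cells (SD, n = 3), and 0 of 19 enzymes were called (limma), with 0 at an unadjusted p under 0.05. Of all 27 tested members, 2 were called, both lower, where 2.53% of all genes were called and 1.32% called lower. At that share, 0 of 19 does not by itself set the enzymes apart. ABCG1 was at 6.25, 6.18 and 5.64 TPM in EV and 2.67, 2.30 and 2.41 TPM in LIN28B cells, 2.45-fold lower (log2 change -1.02 ± 0.12 SE, limma, adjusted p = 0.000345). MYLIP was at 25.7, 27.4 and 25.1 TPM and at 20.7, 18.7 and 17.4 TPM, 1.38-fold lower (log2 change -0.44 ± 0.09 SE, limma, adjusted p = 0.0184). In neither gene did the groups overlap.

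The ABCG1 call was kept in every alternative run, and the MYLIP call was lost in 6. The MYLIP adjusted p was 0.0688 with a replicate block, 0.0785 with only the 2 groups in the fit, and 0.0569, 0.0895, 0.0654 and 0.0906 without EV replicate 1, EV replicate 2, LIN28B replicate 2 and LIN28B replicate 3. The enzymes with the largest differences were HMGCS1, at 467, 468 and 481 TPM in EV and 579, 578 and 515 TPM with LIN28B (log2 change 0.24, 95% interval -0.13 to 0.60, limma, adjusted p = 0.602), and PMVK at -0.25 (-0.49 to 0.00, adjusted p = 0.361). INSIG1 was at 292, 278 and 309 TPM in EV and 231, 250 and 207 TPM in LIN28B cells, non-overlapping groups with a log2 change of -0.35 (limma, adjusted p = 0.267). The interval of FDPS, -0.15 to 0.17, was among the narrowest.

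**Figure D4:**
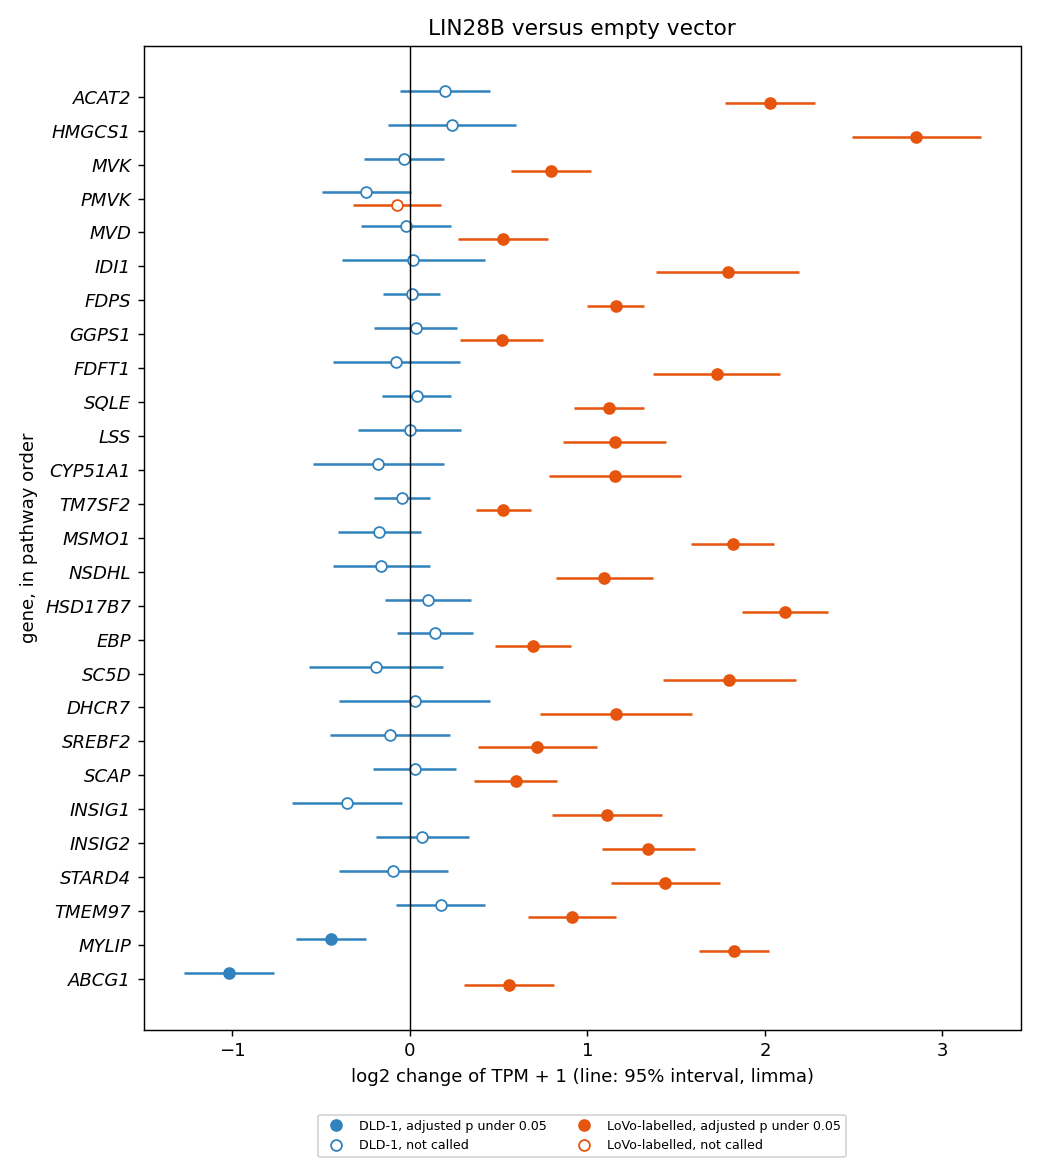
log2 change of TPM + 1 (x axis) of the 27 tested members (y axis, pathway order) between LIN28B and EV cells, in DLD-1 (blue) and by the LoVo label (orange), with limma 95% intervals as lines. Filled points passed an adjusted p of 0.05, which in DLD-1 are MYLIP at -0.44 and ABCG1 at -1.02, and by the LoVo label all but PMVK.

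Set against EV, DLD-1 LIN28B cells with alpelisib showed both changes at once. Here 24 of 27 members were called lower, where 20.2% of all genes were, with a median log2 change of -0.87 against -0.06 for all genes. The exceptions were GGPS1, TM7SF2 and TMEM97, at -0.01, -0.13 and -0.08. INSIG1 had -2.25, STARD4 -1.76, MSMO1 -1.71 and HMGCS1 -1.65 on the log2 scale, and ABCG1 and MYLIP had -1.0 and -0.48. EBP, at -0.37 (limma, adjusted p = 0.0118), lost its call without EV replicate 3 (adjusted p = 0.06) and under median-of-ratios scaling (adjusted p = 0.057). Under median-of-ratios scaling 23 members were called lower, and all genes split into 2590 higher and 3088 lower against 1800 and 3740. This comparison shares its libraries with the 2 above.

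By the LoVo label, the enzymes, the regulators, MYLIP and ABCG1 stood higher in LIN28B cells than in EV cells. Of 27 tested members, 26 were called higher, where 40.3% of all genes were called higher and 56.8% in either direction. The median log2 change was 1.15 for the members and 0.26 for all genes, and -0.03 for all genes under median-of-ratios scaling, which left 22 members higher and PMVK lower (-0.41), and turned all-gene calls from 7463 higher and 3067 lower into 4882 and 5083. HMGCS1 was at 91.8, 87.5 and 141 TPM in EV and 746, 723 and 813 TPM in LIN28B cells, 7.12-fold higher (log2 change 2.85 ± 0.17 SE, limma, adjusted p = 9.67e-10). HSD17B7 was at 15.6, 17.8 and 19.3 TPM and at 74.3, 78.3 and 84.6 TPM, and ACAT2 at 46.8, 42.5 and 59.2 TPM and at 210, 189 and 211 TPM. The groups did not overlap for any of the 26. The share of all genes without overlap was not counted, so this does not set the members apart.

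MYLIP, the decay ligase, was at 5.16, 4.90 and 5.59 TPM in LoVo EV and 20.7, 20.8 and 21.6 TPM in LoVo-labelled LIN28B cells (log2 change 1.83 ± 0.09 SE, limma, adjusted p = 1.32e-10), the opposite direction to DLD-1. The LIN28B effect differed between the LoVo-labelled and DLD-1 cells by 2.27 on the log2 scale for MYLIP and by 1.58 for ABCG1 (limma, adjusted p = 2.21e-09 and 2.16e-06). This difference, a comparison added after the data were seen, was called higher for 26 of 27 members, where 30.4% of all genes were, and for 21 under median-of-ratios scaling, which moved all-gene calls from 5627 higher and 2296 lower to 3654 and 3715. ABCG1 was at 1.36, 1.5 and 1.41 TPM and 2.27, 2.73 and 2.72 TPM (log2 change 0.56 ± 0.12 SE, limma, adjusted p = 0.000779). PMVK was at 13.1, 12.6 and 12.9 TPM and 11, 12.7 and 12.9 TPM, with no call. Within LoVo EV, the third library had the lowest mitochondrial share, 14.5% against 24.0% and 23.1%, and the highest value of every member named in this paragraph and the one before except ABCG1 and PMVK. With that library alone as EV, and its spread assumed to be that of the other groups, MVD, GGPS1 and SREBF2 lost their calls. The parts of the mitochondrial share and of the cell line in these differences were not tested.

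Since the line of the LoVo-labelled LIN28B libraries was not tested, the lines were compared group by group. LoVo EV stood below DLD-1 EV in 25 of 27 members, where 38.2% of all genes were called lower, and 20 lower with TM7SF2 higher (0.29) under median-of-ratios scaling, which moved all-gene calls from 3212 higher and 7082 lower to 5018 and 4837. MYLIP was 5.00-fold lower, HMGCS1 4.42-fold and ABCG1 4.24-fold in LoVo EV. MVD and TM7SF2 were the members without a call, at -0.13 and -0.01 on the log2 scale. EBP lost its call under median-of-ratios scaling, where its change was -0.003 (limma, adjusted p = 0.981). The call was also lost without mitochondrial transcripts (-0.13, limma, adjusted p = 0.247) and with a replicate block (-0.13, 0.469). Among other losses were those without LoVo EV replicate 2 (-0.23, limma, adjusted p = 0.0912) or DLD-1 EV replicate 3 (-0.22, 0.0992).

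Between LoVo-labelled and DLD-1 LIN28B cells, 6 of 27 members were called higher, where 7.96% of all genes were, and 1 lower, where 6.02% were. The highest was INSIG2, at 89.4, 96.8 and 112 TPM against 62.8, 61.1 and 60.7 TPM (log2 difference 0.67 ± 0.12 SE, limma, adjusted p = 0.00132), followed by TM7SF2 at 0.56. HSD17B7, INSIG1, STARD4 and MVD were also called higher and PMVK lower. INSIG2 and TM7SF2 were the 2 that kept their calls in all alternatives run. With alpelisib, 3 of 27 members were called higher in LoVo-labelled cells, a count near the 11.5% of all genes. They were TM7SF2 (0.74), INSIG2 (0.65) and MYLIP (0.29). MYLIP lost that call without LoVo-labelled replicate 1 or 2, or without DLD-1 replicate 1 or 3 (limma, adjusted p = 0.132, 0.0878, 0.115 and 0.117).

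Against LoVo EV, the median log2 change of tested members was 0.16 in LoVo-labelled LIN28B cells with alpelisib and 1.15 in those without. Not every member lay nearer to EV with the drug. GGPS1, TM7SF2 and MYLIP came no nearer, and INSIG1, MVD and STARD4 went from above EV to below it. Here 8 of 27 members were called higher, where 32.2% of all genes were, and 3 lower, where 14.7% were. Neither count was above the share of all genes. The members called higher were SC5D (1.21), HMGCS1 (0.75), ACAT2 (0.72), GGPS1 (0.65), TM7SF2 (0.63), HSD17B7 (0.63), NSDHL (0.61) and MYLIP (1.94), and those lower were INSIG1 (-1.48), MVD (-0.75) and STARD4 (-0.45). STARD4 lost its call without EV replicate 3 (-0.24, limma, adjusted p = 0.0925) or treated replicate 3 (-0.33, 0.0888). With EV replicate 3 alone, under the same assumption on its spread, HMGCS1 and NSDHL lost their calls. Under median-of-ratios scaling 6 were lower, with FDPS, MVK and EBP added, and all-gene calls went from 5962 higher and 2719 lower to 4095 and 4350.

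**Figure D5:**
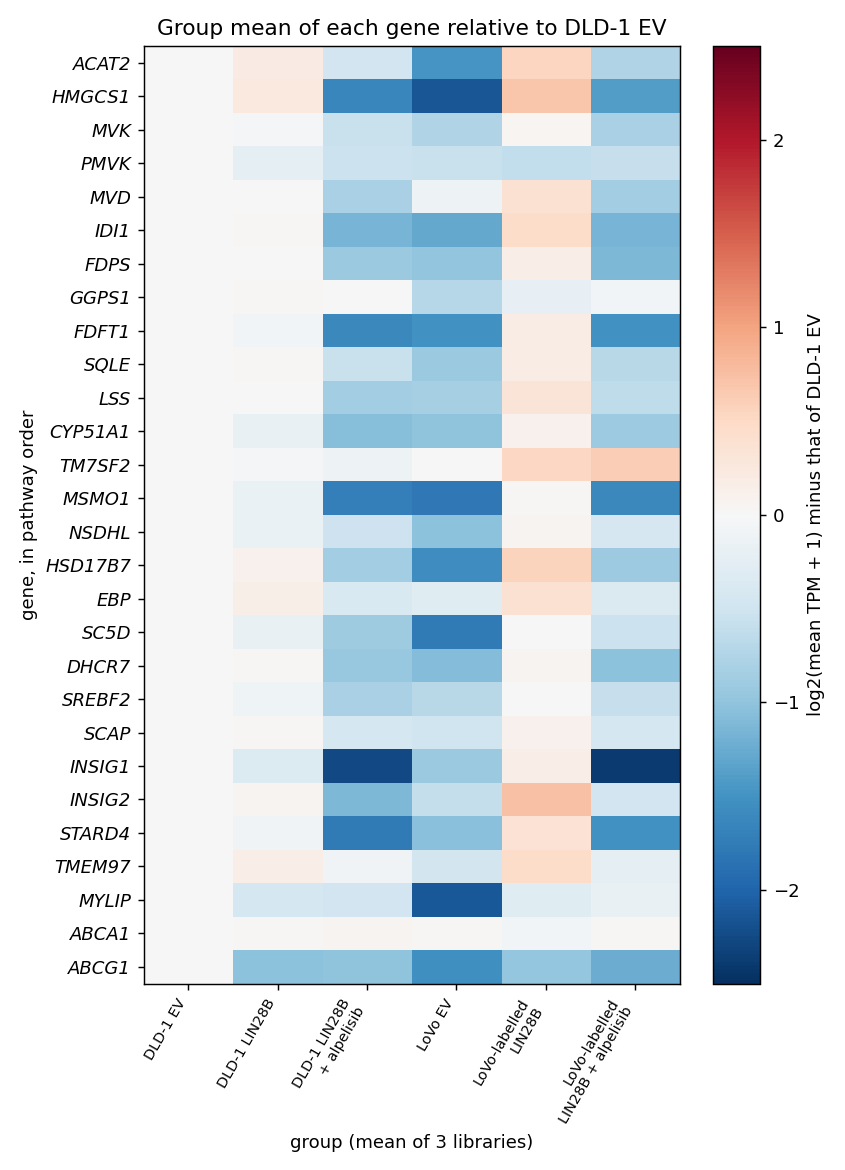
Group mean of each of the 28 members as log2(mean TPM + 1) minus that of DLD-1 EV (colour, blue lower and red higher), with groups on the x axis and genes in pathway order on the y axis. The deepest blue cells are INSIG1 in both alpelisib groups, and HMGCS1 and MYLIP in LoVo EV.

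The same genes held the highest levels in all untreated groups, and INSIG1 left them with alpelisib. FDPS, HMGCS1, FDFT1, MSMO1 and INSIG1 held ranks 1 to 5 of 28, in varying order, in both EV and both untreated LIN28B groups, and ABCG1 and ABCA1 ranks 27 and 28 in all 6 groups. FDPS and FDFT1 in DLD-1 EV, at 616 ± 26.2 and 572 ± 55.8 TPM, did not differ beyond their spread. With alpelisib INSIG1 went from rank 5 to rank 11 in DLD-1 and to rank 14 in LoVo-labelled cells, and TM7SF2 from rank 16 to 6 and from 13 to 4.

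The neighbouring pathways were read from 8 gene lists under alpelisib, on the TPM scale only. Of all genes, 21.9% were called lower in DLD-1 and 24.6% in LoVo-labelled cells. All 5 genes listed under acetyl-CoA supply were called lower in both sets of cells. They were the acetyl-CoA synthetase ACSS2 (log2 change -1.41 in DLD-1 and -1.57 in LoVo-labelled cells), the citrate lyase ACLY (-0.80 and -1.34), ACSL3, ACAT1 and SLC25A1. ACSS2 was at 220, 209 and 191 TPM in DLD-1 LIN28B cells and 70.0, 82.9 and 79.3 TPM with the drug. Of 14 genes listed under SREBP transport and cleavage, 10 and 11 were called lower and 0 higher. That list also holds SREBF1 itself, FBXW7, PAQR3, ERLIN1 and ERLIN2. SEC24D and SEC24A, coat proteins of vesicles leaving the endoplasmic reticulum, had -1.38 each in DLD-1 and -1.67 and -1.28 in LoVo-labelled cells, and SREBF1, which encodes SREBP1, had -1.02 and -1.01. Of 10 SREBP-driven fatty acid genes, 7 and 8 were called lower and 0 higher, among them the desaturase SCD (-2.18 and -2.93), LPIN1 (-1.03 and -1.40) and the synthase FASN (-0.72 and -1.14).

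The other lists are read against the 21.9% of all genes called lower in DLD-1 and 24.6% in LoVo-labelled cells, and 31.0% and 39.7% in either direction. Of 19 tested genes of sterol transport and storage, 11 were called lower and 1 higher in DLD-1, and 9 lower and 0 higher in LoVo-labelled cells, among them VLDLR (-1.16) and LRP8 (-0.86) in DLD-1, and LRP8 (-1.46) and OSBP (-0.82) in LoVo-labelled cells. Of 13 tested genes of the isoprenoid branch and prenylation, 6 and 4 were called lower and 0 higher, the second near the share of all genes. Of 12 genes of sterol-regulated protein degradation, 4 and 5 were called lower, and AUP1, a lipid droplet and degradation factor, was higher in both (0.41 and 0.48). The LXR list held 8 tested genes. Of those described here, 0 were called higher in DLD-1 (limma, 0 at an unadjusted p under 0.05), where 9.05% of all genes were. With so few genes, this does not by itself set them apart. RXRB, a partner receptor of LXR, was lower (-0.23). In LoVo-labelled cells 3 were called higher, where 15.1% of all genes were. They were NR1H3, which encodes LXR alpha, RXRA and SMPDL3A (0.50, 0.35 and 0.47). Of 4 tested genes of vitamin D and bile acid synthesis, CYP24A1 was lower in DLD-1 (-1.38) and 0 were called in LoVo-labelled cells (limma, 2 at an unadjusted p under 0.05).

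Between DLD-1 LIN28B and EV cells, 0 genes were called in each of the 8 lists (limma), where 2.53% of all genes were. At that share, this does not by itself set the lists apart. At an unadjusted p under 0.05, 0 to 3 genes a list were higher and 0 to 3 lower. By the LoVo label, 40.3% of all genes were called higher and 56.8% in either direction. The median log2 change of all genes was 0.26 on the TPM scale and -0.03 under median-of-ratios scaling, and the lists were not rescaled. All 14 genes listed under SREBP transport and cleavage, and all 5 under acetyl-CoA supply, were called higher with LIN28B. Of the 19 sterol transport and storage genes 13 were higher and 2 lower, of 12 degradation genes 8 and 1, of 13 isoprenoid genes 7 and 1, and of 10 fatty acid genes 4 and 2. The 4 vitamin D and bile acid genes were all called lower, with a median log2 change of -0.80. Of the LXR genes described here, LPCAT3, RXRB and SMPDL3A were higher and NR1H3 lower.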

How the data were processed

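The 18 libraries were poly(A)-selected RNA sequencing libraries. The authors deposited 1 table of TPM per gene. Per the submitters' processing notes, hg38, STAR 2.7.10, Picard, HTSeq and DESeq2 were used, in roles not given there. Annotation, gene lengths and strand use are not given in the sources used here.

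Symbols were available for 61757 of 61806 identifiers. Genes with at least 1 TPM in at least 3 libraries (18537) were tested with limma 3.58.1 in R 4.3.3 on log2(TPM + 1), which understates folds of low genes. One model of 6 group means was fitted with a variance trend (12 residual and 3.98 prior degrees of freedom), with Benjamini-Hochberg adjustment over all genes tested and calls under 0.05. All tests were two-sided, and 11 comparisons were made. The fit was checked on simulated data.

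The members and lists were chosen with earlier results of these data known. All members are named, and from other lists up to 4 genes by smallest adjusted p. Replicates correlated at 0.967 to 0.983 and none were identical. Promoters are RefSeq windows of GRCh38.p14. Alternatives covered scaling, filter, pseudocount, trend, replicate block, samples in the fit and left-out libraries. The result of 1 gene of the LXR list is not reported here.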

Additional observations from a re-analysis of the deposited data

Results flagged for a closer look

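The LIN28B effect by the LoVo label minus that in DLD-1, tested as 1 contrast in limma and added after the data were seen, passed an adjusted p of 0.05 for 26 members, each with the LoVo-labelled effect higher. On the log2 scale the difference was 1.83 for ACAT2, 2.62 for HMGCS1, 0.827 for MVK, 0.546 for MVD and 1.77 for IDI1 in the mevalonate segment. It was 1.15 for FDPS, 0.484 for GGPS1, 1.8 for FDFT1, 1.08 for SQLE and 1.15 for LSS. From lanosterol on it was 1.33 for CYP51A1, 0.571 for TM7SF2, 1.99 for MSMO1, 1.26 for NSDHL, 2.01 for HSD17B7, 0.548 for EBP, 1.99 for SC5D and 1.14 for DHCR7. Among regulators and transfer genes it was 0.831 for SREBF2, 0.57 for SCAP, 1.46 for INSIG1, 1.27 for INSIG2, 1.53 for STARD4 and 0.74 for TMEM97. MYLIP had 2.27 and ABCG1 1.58. Adjusted p ran from 2.21e-09 for MYLIP to 0.0194 for GGPS1. The LoVo-labelled LIN28B libraries were closer to DLD-1 than to LoVo EV, so the effect of LIN28B and that of cell line cannot be told apart in this difference.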

How the results depend on the processing

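The alpelisib counts ranged over 20 to 22 of 27 in DLD-1 and 21 to 22 in LoVo-labelled cells when each library was left out in turn. LIN28B against EV in DLD-1 gave 1 to 2 (2 in the fit reported), 26 to 26 by the LoVo label, and LIN28B with alpelisib against EV 23 to 24 and 11 to 14. LoVo EV against DLD-1 EV gave 24 to 25, the LIN28B effect difference 25 to 26, LoVo-labelled against DLD-1 LIN28B cells 2 to 5 (7 reported), the same with alpelisib 2 to 6 (3 reported, 6 without LoVo-labelled alpelisib replicate 3), and the alpelisib effect difference 0 to 2 (0 reported, 2 without LoVo-labelled alpelisib replicate 2). The cause of these shifts was not tested.

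Same-numbered replicates did not deviate together (1 of 18 pairs over 0.1, range -0.302 to 0.119). With the replicate block, 1 member was called for LIN28B against EV in DLD-1 and 2 between LoVo-labelled and DLD-1 LIN28B cells. All-gene calls in these went from 469 to 170 and from 2592 to 964, from 3539 to 1613 with alpelisib, and from 157 to 41 for the alpelisib effect difference. With only the compared groups fitted, LIN28B against EV in DLD-1 gave 1 member and 183 genes.

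Median-of-ratios scaling gave 6 members between treated groups (3 higher, 3 lower) and 2 for the alpelisib effect difference (264 genes). Scaling without mitochondrial transcripts gave 5 and 2. TM7SF2 between EV groups went from -0.01 to 0.29 under median-of-ratios scaling. All-gene calls between treated groups went from 2134 higher and 1405 lower to 1965 and 2068. With LoVo EV replicate 3 as the lone EV library, assumed to vary like the other groups, 23 members were called by the LoVo label, 9 with alpelisib, 22 between EV groups and 20 for the LIN28B effect difference. TPM hold no depth, so the precision of low genes such as ABCA1 is unknown.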
